A study of Mus musculus with 2 samples.

Results

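Irs2, Meis2, Nfix and Cxxc5 are 4 mouse genes whose surroundings held many Sox6 peaks, few of which were overlapped by a Sox9 peak, in primary rib chondrocytes. A peak here is a stretch of genome that the authors called as enriched for a factor by chromatin immunoprecipitation and sequencing (ChIP-seq). The members are all peaks of both deposited lists whose centre lay in 1 of 4 windows of the mouse genome build mm9, 1 window for each gene. The windows were chr8:10910000-11020000 for Irs2, chr2:115680000-115910000 for Meis2, chr8:87220000-87345000 for Nfix and chr18:35955000-36040000 for Cxxc5. In all, 120 Sox6 peaks out of 79107 and 16 Sox9 peaks out of 23865 were members. The windows were chosen by the density of Sox6 peaks and by the low proportion of them that overlapped Sox9, so these values are given as a description and were not tested.

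The Sox6 list came from 1 ChIP sample of rib chondrocytes of wild-type, untreated ICR mice at postnatal day 1, made with an anti-Sox6 antibody, beside 1 sample of input DNA made without antibody. Dissection excluded mature hypertrophic cartilage and kept the less mature zones. The authors obtained the Sox9 list by re-analysing 2 older Sox9 libraries of the same cell type, for which no source used here gives the strain or age. There is 1 list per factor, without replicates, scores or read counts, so depth is unknown, no value has a replicate error, and factor, antibody, animals and library cannot be told apart. No source used here gives the number of animals pooled. Intervals are exact binomial ones (Clopper-Pearson, 95%), cover counting error only, and treat peaks as independent, which neighbouring peaks of 1 locus are not.

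SOX9 is the HMG-box transcription factor that cartilage formation requires, and it carries its own activation domain. SOX6 and the closely related SOX5 bind similar DNA through the same type of domain, lack such an activation domain, and act with SOX9 on cartilage matrix genes. The 4 genes are not cartilage matrix genes. Irs2 encodes insulin receptor substrate 2, an adaptor that links insulin and IGF receptors to PI3-kinase signalling. Meis2 encodes a TALE homeodomain factor that partners with PBX and HOX proteins, Nfix a nuclear factor I transcription factor, and Cxxc5 a CXXC zinc-finger protein known as an inhibitor of Wnt signalling through Dishevelled.

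No mm9 genome or annotation was used here, so peaks are not placed in exons, introns or promoters, and their sequences are not shown. The RefSeq gene table for GRCm38.p6, used for names only, puts each of the 4 genes on the chromosome of its window. In that table the nearest protein-coding genes on either side are Myo16 and Col4a1 for Irs2, BC052040 and Tmco5 for Meis2, Trmt1 and Dand5 for Nfix, and Ube2d2a and Psd2 for Cxxc5. Lyl1 overlaps the annotated span of Nfix. Whether a peak in a window lies nearer to such a neighbour was not tested.

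Sox6 peaks were dense in all 4 windows, whereas Sox9 peaks ranged from sparse to dense. The autosomes held 32.4 Sox6 peaks per Mb and 9.86 Sox9 peaks per Mb. Sox6 peaks numbered 236 per Mb at Irs2, 152 at Meis2, 296 at Nfix and 259 at Cxxc5, from 4.70 to 9.14 times the autosomal density. Sox9 peaks were fewer than on the autosomes at Meis2, where 1 peak gave 4.35 per Mb, and about as frequent at Irs2, where 1 peak gave 9.09 per Mb. They were denser than on the autosomes at Nfix, where 6 Sox9 peaks gave 48.0 per Mb, and at Cxxc5, where 8 gave 94.1 per Mb, which is 9.54 times the autosomal density. Expressed as a ratio, Cxxc5 had 2.75 Sox6 peaks for each Sox9 peak, below the 3.31 of the whole lists, against 6.17 at Nfix, 26.0 at Irs2 and 35 at Meis2. The grouping of these genes as low in Sox9 thus held for the number of Sox9 peaks at Meis2 only, where it rests on 1 peak. At Irs2 and Nfix it held relative to Sox6 and in terms of overlap, and at Cxxc5 in terms of overlap only.

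**Figure D1:**
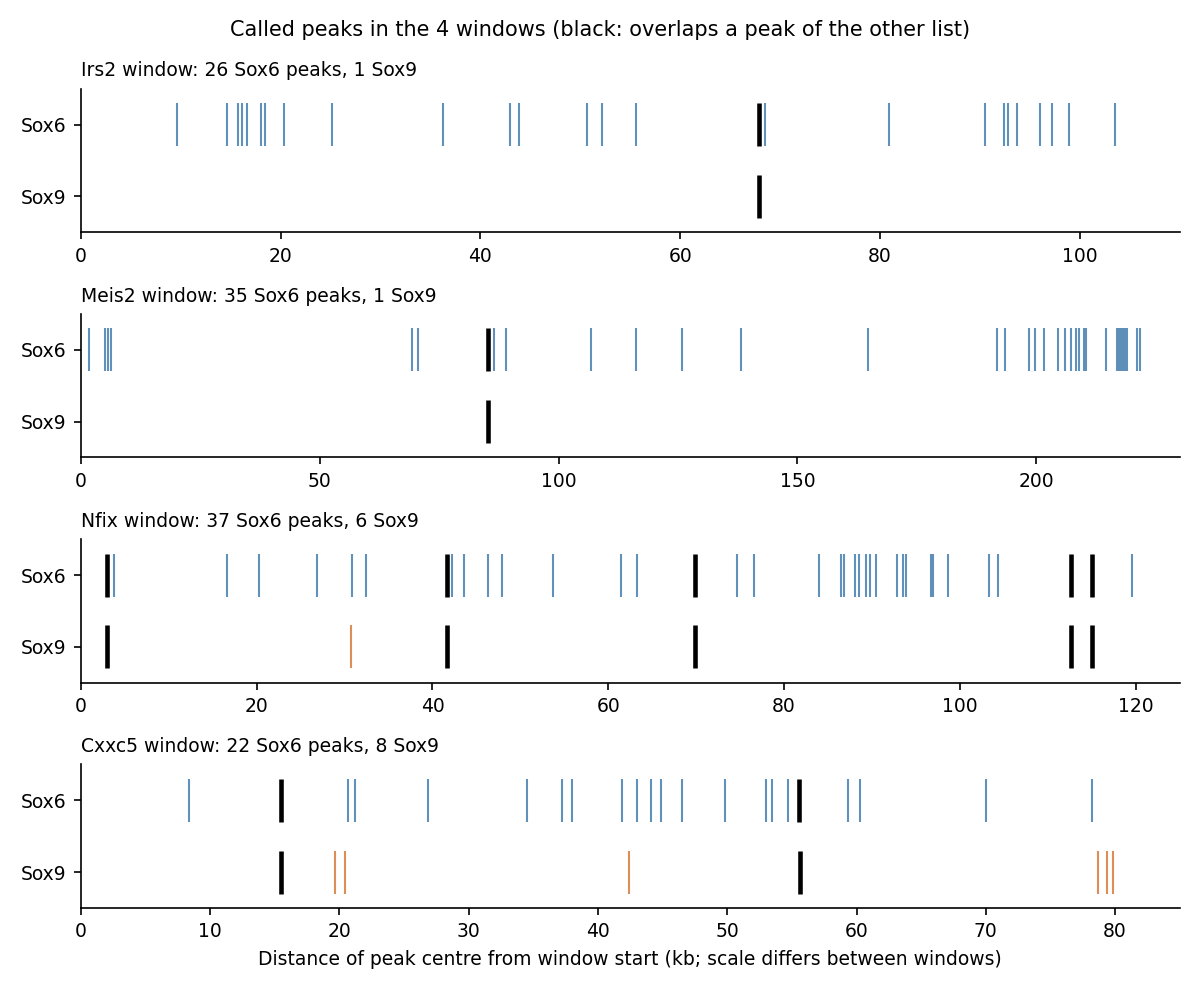
Centres of all called Sox6 peaks (upper row) and Sox9 peaks (lower row) along each of the 4 windows, as distance in kb from the window start, with peaks that overlap the other list in black. Irs2 and Meis2 have 1 Sox9 peak each, Nfix has 6 and Cxxc5 has 8, of which 2 are black.

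Peaks of the 2 lists that had 1 bp or more in common were counted as shared. In the whole lists this held for 23.1% of Sox6 peaks and 76.7% of Sox9 peaks. The Irs2 window had 1 shared Sox6 peak of 26, or 3.85% (0.0973 to 19.6). At Meis2 1 of 35 was shared, or 2.86% (0.0723 to 14.9). Nfix had 5 of 37, or 13.5% (4.54 to 28.8), and Cxxc5 2 of 22, or 9.09% (1.12 to 29.2). Together the windows held 9 shared Sox6 peaks of 120, or 7.50%, and 7 of 98 without Cxxc5. All 4 shares lay under that of the whole list, as the choice of windows required.

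The Sox9 peaks themselves were few, and no difference in their overlap between windows was tested. The single Sox9 peaks of Irs2 and Meis2 were both shared, each with an interval from 2.5 to 100%, and at Nfix 5 of 6 were, or 83.3% (35.9 to 99.6). At Cxxc5 only 2 of 8 Sox9 peaks were shared, or 25% (3.19 to 65.1). The intervals of Nfix and Cxxc5 overlap. In counts, 7 of the 8 Sox9 peaks at Irs2, Meis2 and Nfix lay on a Sox6 peak, and 6 of the 8 at Cxxc5 did not.

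Overlap with Sox9 falls along the Sox6 list, whose order is not documented, so the share that peaks at the same list positions have in the whole list was set beside each window. List positions alone gave 5.90 shared Sox6 peaks at Irs2 where 1 was observed, and 5.94 at Meis2 where 1 was observed. They gave 9.54 at Nfix, with 5 observed, and 6.61 at Cxxc5, with 2 observed. As shares, list position gave 22.7% for Irs2, 16.97% for Meis2, 25.8% for Nfix and 30.0% for Cxxc5. Only Meis2 was given a share clearly under that of the whole list. Since the windows were chosen for a low shared proportion, the shortfall against list position is described and not tested.

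**Figure D2:**
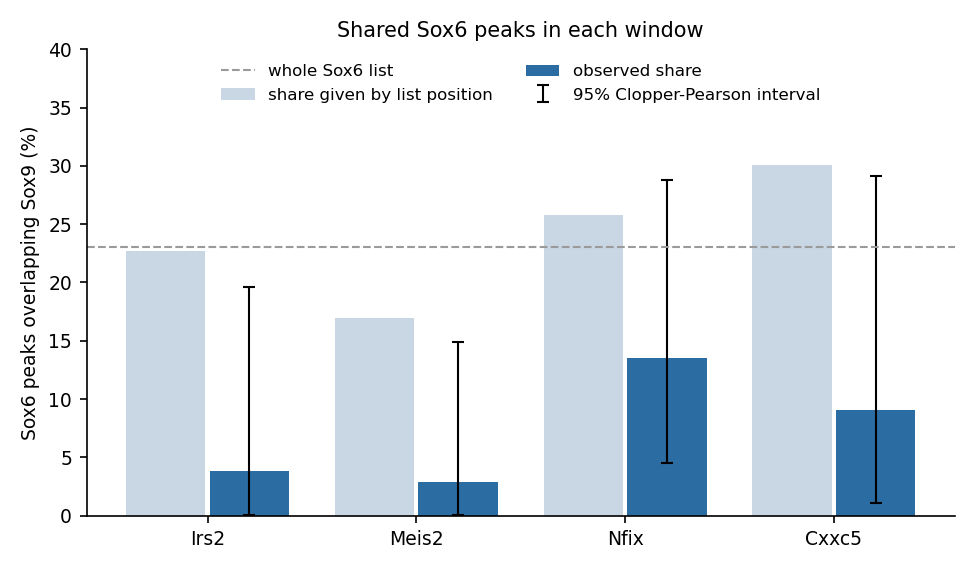
Percentage of Sox6 peaks that overlapped a Sox9 peak in each window (dark bars, with 95% Clopper-Pearson intervals) beside the percentage given by list position (light bars) and that of the whole Sox6 list (dashed line, 23.1%). Observed shares run from 2.86% at Meis2 to 13.5% at Nfix, each under its light bar.

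The windows were chosen as dense stretches with a low shared proportion, and the flanks are the sequence left outside them. A difference between window and flank thus follows in part from that choice, and none was tested. In the 500 kb on each side of the Irs2 window, 15 of 63 Sox6 peaks were shared, or 23.8% (13.98 to 36.2), where list position gave 15.03. Beside Nfix 16 of 70 were shared, or 22.9% (13.7 to 34.4), and list position gave 17.9. Around Cxxc5 17 of 72 were shared, or 23.6% (14.4 to 35.1), with 16.4 given by list position. At these 3 genes the flanks thus had shares close to that of the whole list. Meis2 lay in sparser surroundings: its flanks held 16 Sox6 peaks and 3 Sox9 peaks, with 1 of each shared. For the Sox6 peaks this was 6.25% (0.158 to 30.2), where list position gave 2.70, so the share beside Meis2 was low as well. Of the Sox9 peaks in the flanks, 15 of 18 were shared beside Irs2, 16 of 31 beside Nfix and 17 of 19 beside Cxxc5, the last against 2 of 8 within the Cxxc5 window.

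At Irs2, whose adaptor protein serves insulin and IGF receptors, the 26 Sox6 peaks formed a single run of 94.0 kb, chr8:10919592-11013557, with neighbouring centres no more than 12500 bp apart. The peaks were gathered toward both ends of this run. When neighbouring centres had to lie within 5000 bp, 9 peaks stood together in 15.8 kb at chr8:10919592-10935352 and 8 in 13.2 kb at chr8:11000366-11013557, and none of these 17 was shared. The single Sox9 peak, at place 15680 of its list, lay between these groups at chr8:10977842-10977969. It overlapped the Sox6 peak at chr8:10977847-10977946, with centres 9 bp apart, and this was the only shared pair of the window. A second Sox6 peak lay 597 bp from that Sox9 centre, and the remaining 24 lay more than 10 kb from any Sox9 centre, with a median of 25317 bp over all 26. In the whole list 36523 of 79107 Sox6 peaks lay more than 10 kb from any Sox9 centre, and the median distance was 7614.5 bp.

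Several early-listed Sox6 peaks at Irs2 had no Sox9 counterpart. In the whole list 70.8% of the first 10% of Sox6 peaks were shared. At Irs2 4 peaks belonged to that first 10%, and 1 of them was shared. The earliest, at place 3919 of 79107 (4.95% of the list), was chr8:11008875-11008971, 31018 bp from the nearest Sox9 centre. The widest Sox6 peak of the window, 324 bp at chr8:10924429-10924752, stood at place 41768 and was not shared either. Thus neither the earliest-listed nor the widest Sox6 peak at Irs2 was the one that met Sox9.

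At Meis2, the homeodomain gene, the window was made of separate pieces, and its dense part lay far from any Sox9 peak. The largest run held 21 Sox6 peaks in 30.1 kb, chr2:115871773-115901891, and none was shared, a share whose exact upper limit is 16.1%. As the window was chosen for low sharing, this is a description and was not tested. These 21 peaks lay 106577 to 130382 bp from the nearest Sox9 centre. Of the other 14 peaks, 4 stood together at chr2:115681652-115686523, again 78922 to 83501 bp from Sox9, and 10 were spread between these groups. No other window had Sox6 peaks so far from Sox9, since the greatest distance was 35612 bp at Irs2, 20623 bp at Nfix and 8716 bp at Cxxc5.

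The only Sox9 peak in the Meis2 window, chr2:115765133-115765359, stood at place 3651 of the Sox9 list (15.3%). It overlapped the earliest-listed Sox6 peak of the window, chr2:115765203-115765356, at place 3117 (3.94%), with centres 33.5 bp apart. That was also the only Meis2 peak among the first 10% of the Sox6 list. Of the 35 Sox6 peaks, 22 (62.9%) stood in the last 50% of the list, and in the dense run the median position was at 61.1%. The widest peak, 477 bp at chr2:115898272-115898748, stood at place 72548 and was not shared. The Meis2 window thus combined 1 early-listed site of both factors with a group of mostly later-listed Sox6 peaks.

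At Nfix, a nuclear factor I gene, Sox9 peaks were spread along the window. Of these, 5 of 6 (83.3%) lay on Sox6 peaks, near the 76.7% of the whole Sox9 list. The main run held 35 Sox6 peaks over 103 kb, chr8:87236619-87339657, with 4 shared. Inside it, 16 Sox6 peaks stood within 20.5 kb at chr8:87303917-87324446 without any Sox9 peak, at 8240 to 20623 bp from the nearest Sox9 centre. List position gave 2.74 shared peaks for these 16, and the exact upper limit of their share is 20.6%. The stretch was picked from a window chosen for low sharing, so these values are a description and were not tested. The Sox9 peaks of Nfix lay on both sides of this stretch.

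The 6 Sox9 peaks of Nfix, in genome order, were the following. The first, chr8:87222868-87223021, at place 8926, overlapped the Sox6 peak at place 7220 with centres 36.5 bp apart. The second, chr8:87250655-87250766, at place 17710, was the unshared one, and the Sox6 peak chr8:87250807-87250943 had its centre 165 bp away. The third, chr8:87261570-87261793, 224 bp wide and at place 22048 (92.4% of the Sox9 list), contained the 90 bp Sox6 peak chr8:87261635-87261724. Their centres were 2 bp apart, the closest pair of the 4 windows. The fourth, chr8:87289755-87289923, at place 6916, was the earliest-listed of the 6 and lay 7 bp from the centre of the Sox6 peak at place 6077. The fifth, chr8:87332487-87332686, at place 15505, lay 2.5 bp from a Sox6 peak at place 65361 (82.6% of the list). In that part of the Sox6 list 6.37% of peaks are shared. The sixth, chr8:87334949-87335202, at place 20169, lay 52.5 bp from the Sox6 peak at place 6632. Shared sites at Nfix therefore included early-listed and late-listed Sox6 peaks.

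Among the first 10% of Sox6 peaks were 5 from Nfix, and 3 of these were shared, against 70.8% in the whole list. The earliest, chr8:87236619-87236706 at place 4989 (6.31%), was not, and lay 13718 bp from Sox9. The widest, 492 bp at chr8:87306262-87306753, overlapped its Sox6 neighbour chr8:87306620-87306951. It was 1 of 2 overlapping neighbour pairs in this window, and no other window had such a pair. The narrowest peak of all members, 7 bp at chr8:87246853-87246859, was also at Nfix, and the narrowest of the whole Sox6 list had 4 bp.

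At Cxxc5, the gene of a CXXC zinc-finger protein, peaks of both factors were dense and mostly did not overlap. The 22 Sox6 peaks formed a single run of 70.0 kb, chr18:35963282-36033281, and each had a Sox9 centre within 8716 bp, with a median of 2557 bp. In the whole list 42584 of 79107 Sox6 peaks had a Sox9 centre within 10 kb, and the median distance was 7614.5 bp. The 3 earliest-listed Sox9 peaks stood at places 5535, 9263 and 10417. The first, chr18:36010552-36010720, overlapped the Sox6 peak chr18:36010408-36010654 with centres 105 bp apart. The second, chr18:35970397-35970596, overlapped chr18:35970405-35970572 with centres 8 bp apart. The third, chr18:36034351-36034429, was unshared, 1188 bp from the nearest Sox6 centre. The 6 unshared Sox9 peaks lay 236 to 1640 bp from a Sox6 centre, so that each had a Sox6 peak near it though none on it.

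A gap rule also counts such neighbouring peaks. When peaks whose edges were no more than 1000 bp apart also counted as meeting, 32.3% of all Sox6 peaks and 90.8% of all Sox9 peaks had a counterpart. At Cxxc5 the count rose from 2 to 8 of 22 Sox6 peaks (36.4%) and from 2 to 6 of 8 Sox9 peaks (75%). Under this rule list position gave 8.52 Sox6 peaks at Cxxc5, against 8 observed. At Irs2 the count became 2 of 26, with 8.33 given, at Meis2 it stayed at 1 of 35, with 9.26 given, and at Nfix it became 8 of 37, with 12.9 given. The count at Cxxc5 thus came close to the number given by list position, while at Irs2, Meis2 and Nfix it remained lower relative to that number.

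**Figure D3:**
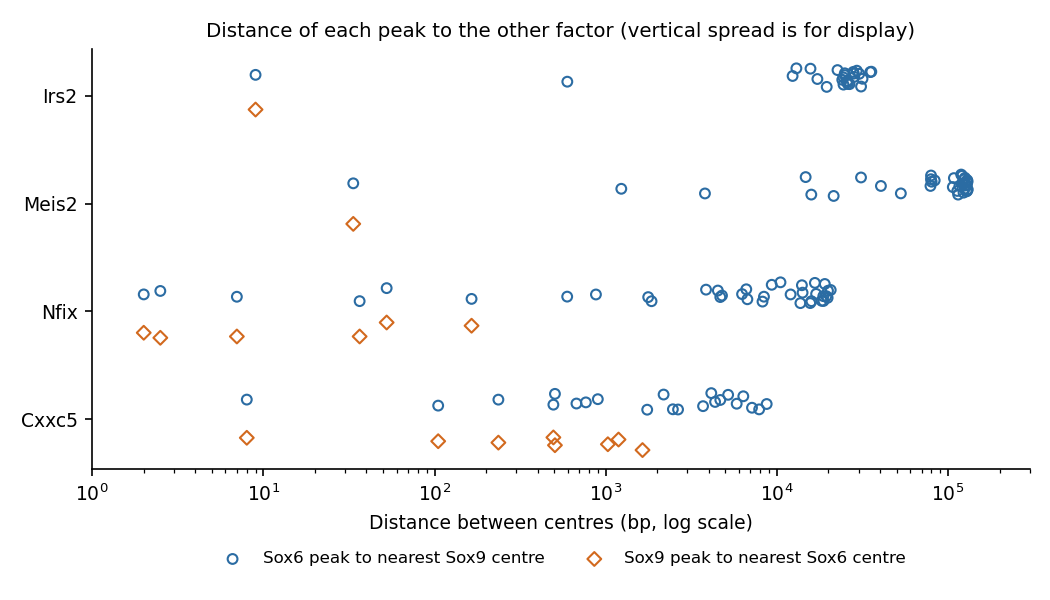
Distance in bp (log scale) from each Sox6 peak to the nearest Sox9 centre (circles) and from each Sox9 peak to the nearest Sox6 centre (diamonds), by window. Sox6 peaks at Meis2 reach 130382 bp, whereas those at Cxxc5 all lie within 8716 bp of a Sox9 centre.

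Cxxc5 also had the earliest-listed Sox6 peaks of the 4 windows. Their median position was at 30.6% of the list, against 41.7% at Nfix, 53.8% at Irs2 and 55.8% at Meis2, and 5 of 22 stood in the last 50% of the list. The earliest, chr18:36033123-36033281 at place 2585 (3.27%), was unshared, with a Sox9 centre 495 bp away. A second unshared peak of the first 10% of the list was chr18:35996834-35996917 at place 3448, named after its values were seen, with a Sox9 centre 505 bp away. The widest, 387 bp at chr18:35989311-35989697, stood at place 10018 and lay 7877 bp from Sox9. Over all 4 windows, 12 Sox6 peaks stood in the first 10% of the list, and 5 of them were shared. In the whole list 70.8% of the first 10% were shared, and the windows were chosen for a low share.

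**Figure D4:**
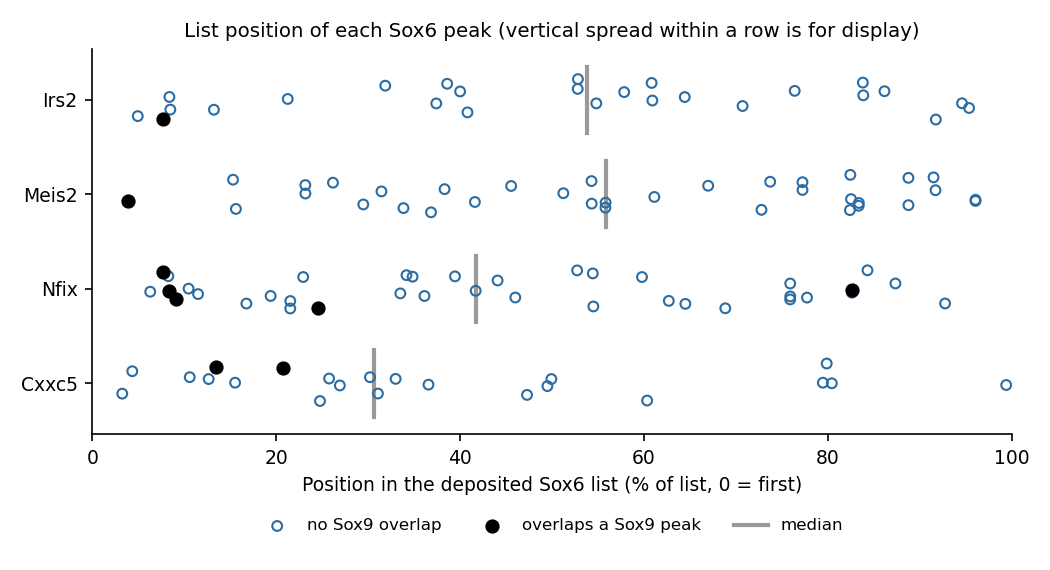
Position in the deposited Sox6 list, in percent from its first peak, for each Sox6 peak of the 4 windows, with filled points for peaks that overlap Sox9 and bars at the medians. Of the 9 filled points 8 lie in the first 50% of the list, and the exception is at Nfix at 82.6%. This is much as in the whole list, where 3174 of 18237 shared Sox6 peaks stood in the last 50%.

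Peak widths in the windows were close to those of the lists. The median Sox6 width was 134 bp at Irs2, 175 bp at Meis2, 150 bp at Nfix and 151.5 bp at Cxxc5, and 151 bp in the whole list. Over the 16 Sox9 peaks it was 184.5 bp, against 183 bp in the whole Sox9 list. Neighbouring Sox6 centres were a median of 1908 bp apart at Irs2, 1565 bp at Meis2, 2142 bp at Nfix and 2688 bp at Cxxc5. Spacing belongs to the density that the choice of windows used, and no test was made of widths, since peaks of 1 locus are not replicates.

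The largest runs were then set among all dense Sox6 runs of the list. There were 313 runs of 15 or more Sox6 peaks, with a median of 21.1% of their peaks shared (quartiles 13.6 and 31.6). Of these, 10 runs, the largest run of Meis2 among them, had no shared peak, and 3 of these 10 had 20 or more peaks. The Irs2 run, with 1 of 26, came next after these 10, followed by a run with 1 of 22. Below the Cxxc5 run in shared proportion were 40 runs, and below the Nfix run 51. The run just under Nfix had 2 of 18 peaks shared and the one just above 4 of 34. A run with 3 of 33 had the same proportion as Cxxc5, and the one just above had 2 of 21. Irs2 and Meis2 were thus at the low end of these dense runs, while Nfix and Cxxc5 lay under the lower quartile of a continuous range. This order uses the shares that the windows were chosen by, and the Meis2 run leaves out the shared peak of its window. It also depends on joining centres within 12500 bp. Within 25000 bp the Irs2 run had 3 of 33 peaks shared (9.09%) and the Nfix run 10 of 59 (16.9%). Cxxc5 then had 2 of 26, and the Meis2 run stayed at 0 of 21.

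**Figure D5:**
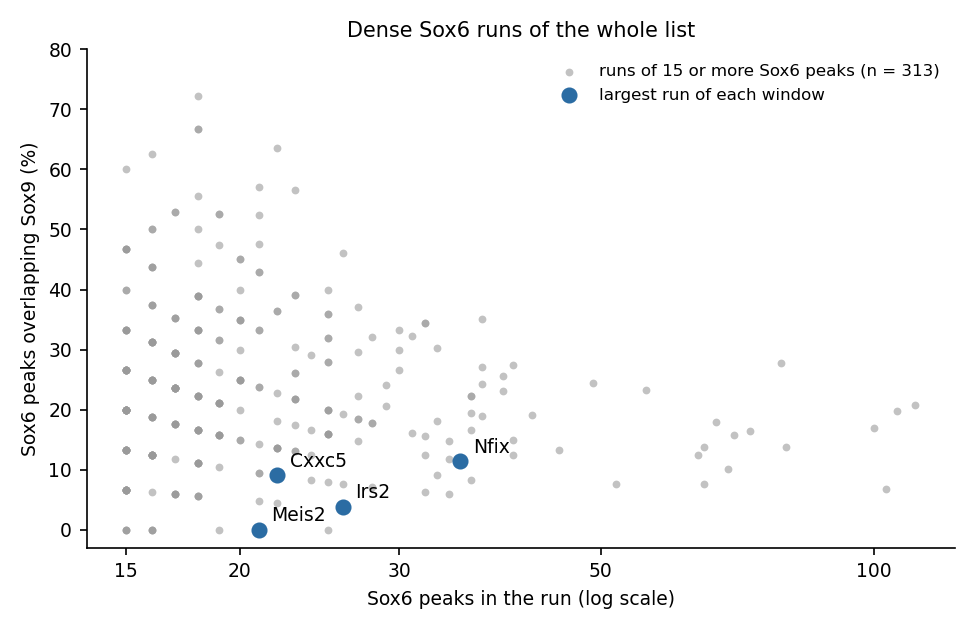
Number of Sox6 peaks (log scale) and percentage of them that overlapped Sox9 for each of the 313 runs of 15 or more Sox6 peaks, with the largest run of each window in blue. Meis2 is at 0%, Irs2 at 3.85%, Cxxc5 at 9.09% and Nfix at 11.4%.

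The edges of the windows fell between Sox6 runs except at Nfix. The next Sox6 peak before the Nfix window, chr8:87213134-87213244, was shared and belonged to a run of 4 peaks, of which 2 lay inside the window. Next outside Irs2 were unshared Sox6 peaks 3.50 kb before and 65.4 kb after the window, and outside Meis2 unshared ones 78.4 kb before and 243 kb after. At Cxxc5 the next ones, also unshared, lay 23.2 kb before and 7.41 kb after, and at Nfix the one after lay 11.1 kb away and was unshared.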

How the data were processed

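The members, lists and comparisons were chosen with earlier results of these data known. Chromatin was fixed in 1% formaldehyde and sheared to 100 to 600 bp, per the labels' protocols. The aligner Bowtie (version not stated) and the build mm9 come from the submitters' processing notes. Not given in the sources used here: peak caller, a build for the Sox9 list alone, and the threshold, beyond the mark FDR in the names of both lists, which no source explains. Both lists were read as mm9. The authors deposited 3 columns per list: chromosome, start and end. Starts are printed counted from 1.

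Peaks were assigned by centre to the 4 windows and counted as shared from 1 bp of overlap. Distances are between centres. A run joins neighbouring Sox6 centres within 12500 bp. The number given by list position sums, over the peaks of a window, the shared proportion of the whole list in the same of 20 bins of list position. The named peaks were the earliest-listed and widest Sox6 peak, the closest shared pair, and all Sox9 peaks, or the 3 earliest-listed where there were over 6. Functions were tested on simulated lists (Python 3.11.15, pandas 2.3.3, SciPy 1.17.1).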

Additional observations from a re-analysis of the deposited data

How the results depend on the processing

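Of 107 values recomputed under the alternatives, 88 stayed within the main value's 95% interval, or within 1.5 times for counts, and 19 did not. Many of these intervals are wide, and the Sox9 shares of Irs2 and Meis2 rest on 1 peak each, with an interval from 2.5 to 100%. The count of 88 therefore says little about how stable the shares are. No paired analysis was possible because neither factor has replicate lists. The share of Sox6 peaks that met Sox9 became 0% at Irs2 (0 of 11) with the first 50% of each list, 30.8% at Nfix (4 of 13) with equal list lengths, where the whole list had 49.9%, and 36.4% at Cxxc5 with the gap of up to 1000 bp. Equal list lengths also gave 16.7% at Irs2 (1 of 6), 14.3% at Meis2 (1 of 7) and 20% at Cxxc5 (2 of 10), inside the wide main intervals. The share of Sox9 peaks became 75% at Cxxc5 with that gap, and 100% at Nfix with the gap, with centres within 250 bp and with the first 50% of each list. Sox6 counts fell because fewer peaks entered, to 11 at Irs2, 13 at Meis2 and 21 at Nfix with the first 50% of the list. With equal list lengths they were 6, 7 and 13, and 10 at Cxxc5. In windows narrowed by 20000 bp on each side they were 11 at Irs2 and 21 at Meis2. The largest run had 9 peaks at Irs2 and 16 at Nfix with centres within 5000 bp, and 59 at Nfix within 25000 bp, since runs split and merge with this distance. For the first 50% of each list no Sox9 share could be given at Irs2, which then held no Sox9 peak. Observed shared peaks stayed under the number given by list position in all 16 recomputations, though at Cxxc5 with the gap the ratio was 0.939. Without read counts, the strength of any peak and the depth behind a missing Sox9 peak are unknown.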

Other observations

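Some Sox6 peaks of 1 window stood next to each other, or nearly so, in the deposited list. At Nfix the consecutive peaks at places 17038 and 17039 lay 7354 bp apart, and those at places 60046 and 60047 lay 59395 bp apart. At Meis2 the peaks at places 61103 and 61105 lay 119876 bp apart and those at places 70218 and 70220 lay 2788 bp apart, each pair with 1 peak from elsewhere between them in the list. In the whole Sox6 list 1575 of 79106 consecutive pairs (1.99%) had centres within 100000 bp on 1 chromosome. This was so for 0.114% of pairs in the first 10% of the list and 5.03% in the last 10%. The Meis2 pairs were not consecutive, so these rates are no background for them. What set the order of the list was not tested.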
